A study of Mus musculus with 13 samples.

Results

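The genes described here are 10 members of the peroxisome proliferator-activated receptor (PPAR) system: the receptors Ppara, Ppard and Pparg, their retinoid X receptor partners Rxra and Rxrb, the coactivators Ppargc1a and Ppargc1b, the orphan receptor Esrra, and the corepressors Ncor1 and Nrip1. They were chosen by symbol, each matched 1 Ensembl gene, and they are 10 of the 16382 genes in the tables. Their transcripts were measured by RNA-seq in C2C12 myotubes, the multinucleated fibres that a wild-type mouse myoblast line forms in low serum. From day 8 of differentiation the myotubes were held for 24 h in medium with 10 μM palmitoylethanolamide (PEA) or with its vehicle, DMSO (CON), and 6 libraries of each were analysed. The wells were grown in duplicate on 3 occasions that the labels do not tie to libraries, and p-values therefore measure the spread between libraries, part of which may be technical. Libraries held between 12354845 and 50397444 estimated counts, with CON 1 the deepest and a median of 18420606.

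PPARs are nuclear receptors that bind fatty acids and their derivatives and that sit on DNA as a pair with a retinoid X receptor (RXR). The pair recognises 2 copies of a short motif in the same orientation, separated by 1 base, and switches on genes for the uptake, storage and oxidation of fatty acids when corepressors are exchanged for coactivators. In muscle, PPARδ and the PGC-1 coactivators, together with the estrogen-related receptors, are known as regulators of oxidative metabolism. Of the PPARs, PPARα is the one through which PEA is held to act. The comparison asks whether PEA changed the transcripts of the members, and how abundant each receptor was in these myotubes.

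The CON and PEA ranges of each member overlapped, although the PEA median of Ppargc1b was lower and that of Nrip1 higher than in CON. Of the 10 members, 9 passed the filter on low counts, which Ppara did not, and none passed an adjusted p of 0.05 in edgeR's quasi-likelihood test over all genes (the adjustment is Benjamini-Hochberg throughout). Over all 13142 genes tested, 11.0% were called, 6.31% as higher and 4.74% as lower in PEA. At an unadjusted p below 0.05 stood 2 members, Ppargc1b and Nrip1, against 27.4% of all genes. In DESeq2 1 member was called, Ppargc1b, beside 14.5% of all genes that DESeq2 tested, and in limma-voom the same member, beside 12.4%. Groups without overlap were found for 0 of the 9 members tested and for 4.34% of all genes. The log2 fold change (PEA over CON, called the log2 change below) was above 0 for 5 members and below 0 for 4, with a median of 0.06 beside 0.01 over all genes. RNA of whole wells was measured, so fewer cells of a type and less RNA per cell cannot be told apart.

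**Figure D1:**
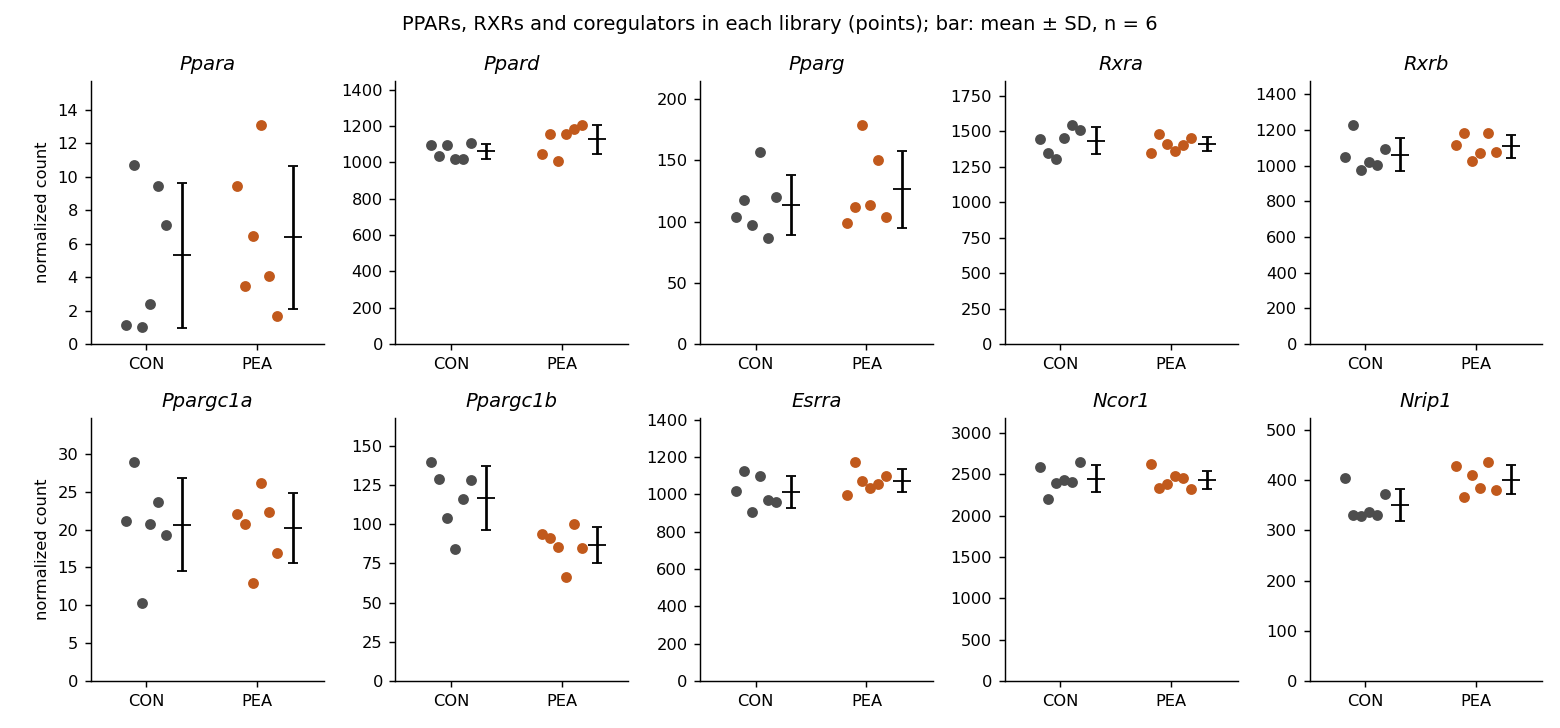
Normalized counts (estimated counts divided by 1 factor per library) of the 10 members in each of the 6 CON and 6 PEA libraries, each panel on its own axis from 0, with the mean ± SD beside the points. The groups overlap in each panel. Ppargc1b lies lower in PEA, where 1 library is below the lowest CON library, and Nrip1 lies higher, where 3 libraries are above the highest CON library.

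The order of the receptors was read from normalized counts per kilobase (kb) of annotated exons, since longer transcripts yield more reads. Rxrb stood first of the 10 members with a level of 251 ± 18.2 per kb (SD, n = 12), followed by Esrra at 209 ± 15.4, Rxra at 207 ± 10.6, Ppard at 146 ± 9.22 and Ncor1 at 125 ± 6.78. Nrip1 came next at 30.4 ± 3.14 per kb, then Ppargc1b at 17.6 ± 3.82, Pparg at 17.2 ± 3.97, Ppargc1a at 2.89 ± 0.736 and Ppara at 0.888 ± 0.627. Of the 9 pairs of neighbours in this order, 7 differed within libraries in the same direction in all 12 (exact sign-flip permutation test, two-sided, p = 4.9e-04, the smallest possible with 12 libraries; adjusted p = 6.3e-04). The order was taken from these same libraries. The p-values therefore measure only how steady it was between libraries, and not the choice of length. Esrra was above Rxra in 8 of 12 libraries (p = 0.675 by the same exact test) and Ppargc1b above Pparg in 6 of 12 (p = 0.82), so neither pair could be ordered over the 12 libraries. The groups went different ways in both pairs: Esrra was above Rxra in 2 of 6 CON and 6 of 6 PEA libraries, and Ppargc1b above Pparg in 5 of 6 CON and 1 of 6 PEA libraries. This difference between the groups was seen in the data and not tested.

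The top of the order depended on the length used. With the longest annotated transcript in place of all exons, Esrra was above Rxrb and Ppard above Rxra, with the reverse in 0 and 1 of 12 libraries. Esrra was then above Rxra in 12 of 12 libraries, and without division by length in 0 of 12. The lower steps, from Ncor1 to Nrip1, from Nrip1 to Ppargc1b and to Pparg, and from these to Ppargc1a and Ppara, were the same under both lengths. A further limit is that the library kit is not described as keeping strand. Esrra shares 1479 exonic bases (29.6% of its exons) with Trmt112 on the other strand, Ncor1 shares 3714 (19.0%) with Ttc19 and Ppara shares 1803 (27.4%) with Cdpf1, and reads from such stretches cannot be told apart.

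The tables do not reach the highest Ensembl identifiers and hold no gene under 10 counts in total, so ranks are among the genes they hold. Among their 37 nuclear receptor genes, Rxrb ranked 5th by level per kb, Esrra 8th, Rxra 9th, Ppard 11th, Pparg 21st and Ppara 34th. The 4 receptors above Rxrb were Rarg, a retinoic acid receptor, at 564 per kb, Nr1h2, the liver X receptor β, at 490, Nr1d1, the clock repressor REV-ERBα, at 459, and Vdr, the vitamin D receptor, at 402. Beside them in this order, and named for that place, were Nr3c1, the glucocorticoid receptor, at 246 ± 17.1 just under Rxrb, and Rara at 154 ± 11.3 just over Ppard, and both differed from their neighbour by less than the SD over libraries. Placed among all 16343 genes with a length, Ppard lay above 68.8%, Pparg above 32.4% and Ppara above 10.0%.

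**Figure D2:**
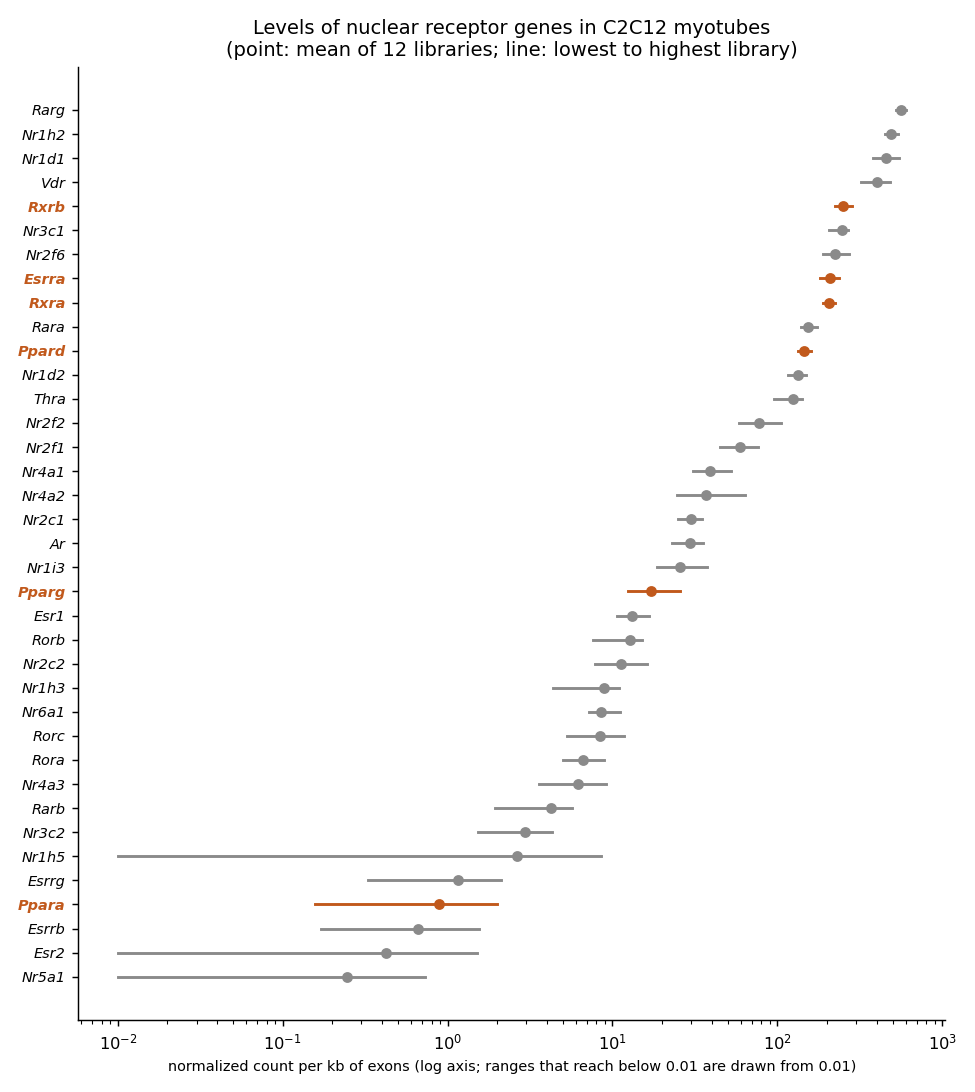
Normalized count per kb of exons of 37 nuclear receptor genes on a log axis, as the mean of the 12 libraries (points) and the range from the lowest to the highest library (lines), with the 6 receptors described here in orange. Rxrb, Esrra, Rxra and Ppard lie between 146 and 251 per kb, Pparg at 17.2 and Ppara at 0.888, among the lowest.

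Ppard made up most of the PPAR transcript pool. Per kb, its share of the 3 PPARs together was 88.9% ± 2.40 (SD, n = 12), that of Pparg 10.5% ± 2.39 and that of Ppara 0.549% ± 0.393. Within libraries Ppard was 8.83 ± 1.84 times as abundant as Pparg, with a range of 5.24 to 10.9. Its ratio to Ppara had a median of 196 and ranged from 77.3 to 934, with 1 to 13 counts of Ppara in a library.

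Ppara (ENSMUSG00000022383, chr15:85618656-85687067 in GRCm39) encodes PPARα, the receptor most often named for PEA and a driver of fatty acid oxidation in liver, heart and muscle. It was counted 66 times in all libraries together, 29 times in CON and 37 times in PEA, and 10 of the 12 libraries held fewer than 10 counts. In CON its normalized counts were 1.03 at the lowest, 4.77 at the median and 10.7 at the highest, and in PEA 1.69, 5.27 and 13.1.

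The 2 groups of Ppara values overlapped almost entirely (mean ± SD of 5.32 ± 4.33 for CON against 6.38 ± 4.26 for PEA, n = 6 each, two-sided exact permutation p = 0.543 on log2 of the normalized count plus 1). In edgeR without a filter on low counts, its log2 change was 0.33 with a 95% interval from -1.10 to 1.76 (adjusted p = 0.824). A change of 2-fold in either direction lay inside this interval, and p-values that miss the threshold do not show that the values were alike. CON libraries differed among themselves: CON 1 held 0.0595 CPM (95% exact Poisson interval 0.0123 to 0.174) and CON 2 held 0.554 (0.266 to 1.02), and these intervals, which cover counting error only, did not overlap.

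Ppard (ENSMUSG00000002250, chr17:28451674-28520448) encodes PPARδ, the PPAR best known in skeletal muscle. CON libraries held 1019 normalized counts at the lowest, 1065 at the median and 1104 at the highest, and PEA libraries held 1010, 1157 and 1206. PEA took both ends of the range, with 4 libraries above the highest CON library and 1 below the lowest. Its log2 change was 0.09 (SE 0.05, 95% interval -0.03 to 0.20, adjusted p = 0.309), and folds above 1.15 or below 0.983 lay outside the interval.

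Pparg (ENSMUSG00000000440, chr6:115337675-115468268) encodes PPARγ, the master regulator of fat cell formation. Its normalized counts ran from 86.5 over a median of 111 to 157 in CON, and from 98.7 over 113 to 179 in PEA. Medians and ranges were close, and 1 PEA library, PEA 3, lay above the highest CON library. This gave a log2 change of 0.15 (SE 0.17, 95% interval -0.21 to 0.51, adjusted p = 0.615). Of 8 adipocyte markers Plin1 and Fabp4 were in the tables, and the others were not analysed here. Their summed normalized counts were 15 to 46 in CON and 12 to 46 in PEA.

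The RXRs, the obligate partners of PPARs, showed no change past the threshold. Rxra (ENSMUSG00000015846, chr2:27566452-27653330) was at 1433 ± 93.4 normalized counts under CON and 1408 ± 51.7 under PEA, which is a log2 change of -0.02 (95% interval -0.13 to 0.08, adjusted p = 0.809). Rxrb (ENSMUSG00000039656, chr17:34250759-34257376) was at 1061 ± 91.6 under CON and 1108 ± 62.8 under PEA, a log2 change of 0.06 (95% interval -0.06 to 0.19, adjusted p = 0.536). The PEA values of both genes lay inside the CON range in every library. The third RXR gene, Rxrg, was not analysed here.

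Ppargc1b (ENSMUSG00000033871) encodes PGC-1β, a coactivator of PPARs and estrogen-related receptors that raises mitochondrial gene expression, and it was the member with the largest difference. Its normalized counts in CON were 83.9 at the lowest, 122 at the median and 140 at the highest, and in PEA 66.6, 88.3 and 99.9. All 6 PEA libraries lay below 5 of the 6 CON libraries, and CON 4, at 83.9, lay inside the PEA range. The mean was 117 ± 20.2 in CON and 87.0 ± 11.4 in PEA, a fold of 0.740 (log2 change -0.43, SE 0.15, 95% interval -0.74 to -0.13).

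In the main test Ppargc1b missed the threshold (edgeR, adjusted p = 0.0616). An unadjusted exact permutation test on log2 of its normalized counts plus 1 gave p = 0.0173. The gene passed in DESeq2 (adjusted p = 0.0365), in limma-voom (adjusted p = 0.0420) and in edgeR without CON 4 (adjusted p = 0.0258), and reached at most 0.136 when another library was left out. Its log2 change lay between -0.51 and -0.37 over the fits without 1 library.

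Ppargc1a (ENSMUSG00000029167, chr5:51611592-51725068) encodes PGC-1α, the coactivator induced by exercise and cold that drives mitochondrial biogenesis. It was scarce in these myotubes, with 10.3, 20.9 and 29.0 normalized counts as the lowest, median and highest CON values and 12.9, 21.4 and 26.2 as those of PEA. The groups covered the same range. The log2 change was -0.02 with a wide 95% interval, -0.59 to 0.55 (adjusted p = 0.968), since a library held only 10 to 55 counts of the gene, and it changed sign when single libraries were left out.

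Within the PGC-1 family, Ppargc1b was above Ppargc1a per kb in each library. The third relative, Pprc1, which was chosen after its level was seen, had 137 ± 14.3 per kb (SD, n = 12), above both.

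Esrra (ENSMUSG00000024955, chr19:6888338-6899336) encodes the estrogen-related receptor ERRα, which works with the PGC-1 coactivators on genes of the respiratory chain. Its normalized counts were 907, 994 and 1126 as the lowest, median and highest in CON and 999, 1066 and 1176 in PEA. The groups overlapped, with 1 PEA library above the highest CON library. Its log2 change was 0.08 (SE 0.06, 95% interval -0.04 to 0.21, adjusted p = 0.388). Trmt112, which shares exonic bases with it on the other strand, had a log2 change of -0.10 (adjusted p = 0.313).

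Nrip1 (ENSMUSG00000048490, chr16:76084280-76170774) encodes RIP140, a corepressor that restrains oxidative genes in muscle and fat. CON libraries held 328 normalized counts at the lowest, 334 at the median and 404 at the highest, and PEA libraries 367, 397 and 437. Most PEA libraries were high, with 3 above the highest CON library, CON 1, and none below the CON median. The log2 change was 0.19 (SE 0.08, 95% interval 0.03 to 0.35, edgeR adjusted p = 0.111). On log2 of its normalized counts plus 1, an unadjusted exact permutation test gave p = 0.0195. The adjusted p stayed above the threshold under each alternative, between 0.0516 without CON 1 and 0.224 without PEA 5.

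Ncor1 (ENSMUSG00000018501, chr11:62206297-62349368) encodes the corepressor that carries histone deacetylase 3 to nuclear receptors in the absence of ligand. With 2448 ± 161 normalized counts under CON and 2435 ± 112 under PEA, it had the highest count of the members. Its log2 change was -0.01 (SE 0.05, 95% interval -0.11 to 0.10, adjusted p = 0.951), the narrowest interval of the 9, and its sign turned when single libraries were left out.

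**Figure D3:**
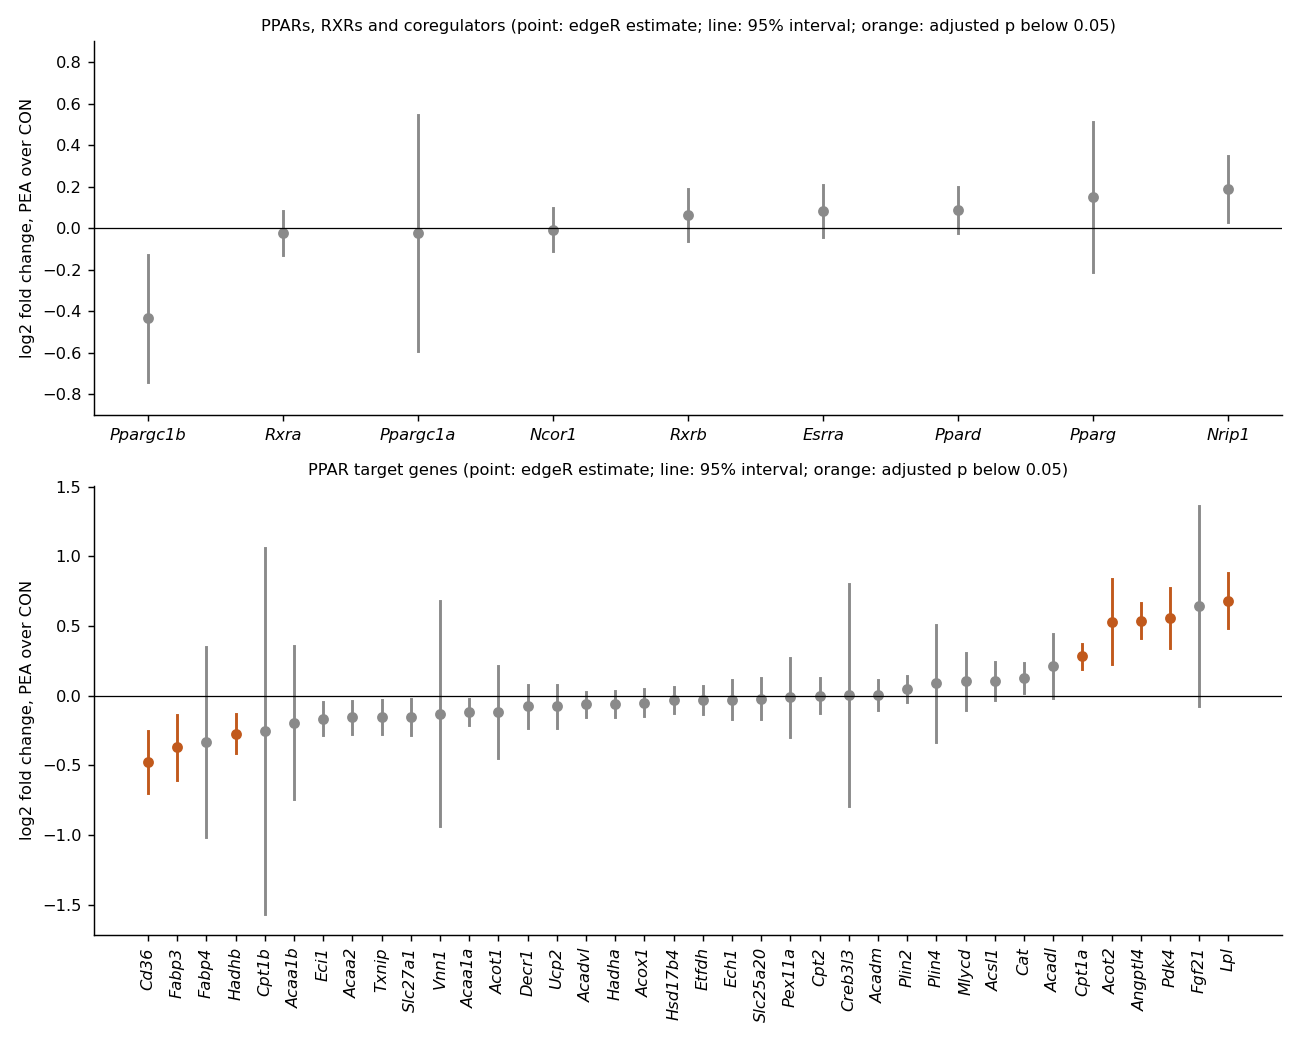
Log2 fold changes of PEA over CON (edgeR estimate with its 95% interval) for the 9 members tested, above, and for the 38 PPAR target genes tested, below, with genes past an adjusted p of 0.05 in orange. None of the members is orange, and 8 targets are, from Cd36 at -0.48 to Lpl at 0.68.

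The proportions between members were compared within libraries, in a family of 4 measures tested by exact permutation over all 924 assignments of the libraries (two-sided, smallest possible p = 0.00216). The Ppard share of PPAR transcripts per kb was 89.2% ± 2.12 under CON and 88.7% ± 2.83 under PEA (6 libraries each, exact p = 0.719, adjusted p = 0.719). Rxrb made up 54.1% ± 2.79 of Rxra and Rxrb together in CON and 55.6% ± 1.45 in PEA (exact p = 0.268, adjusted p = 0.537). In CON the highest Rxrb share, 59.2%, belonged to CON 2. Without that library the difference rose from 1.52 to 2.55 percentage points, the largest difference when 1 library was left out. The screen for libraries that stood apart, given below, did not flag CON 2, and no conclusion is drawn from leaving it out.

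The ratio of Ppargc1a to Ppargc1b per kb was 0.140 in CON and 0.187 in PEA as geometric means, a log2 difference of 0.42 (exact permutation p = 0.180, adjusted p = 0.537). Nrip1 exceeded Ppargc1a 10.1 times per kb in CON and 11.6 times in PEA (exact permutation p = 0.461, adjusted p = 0.615). Libraries of CON and PEA overlapped in all 4 measures.

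**Figure D4:**
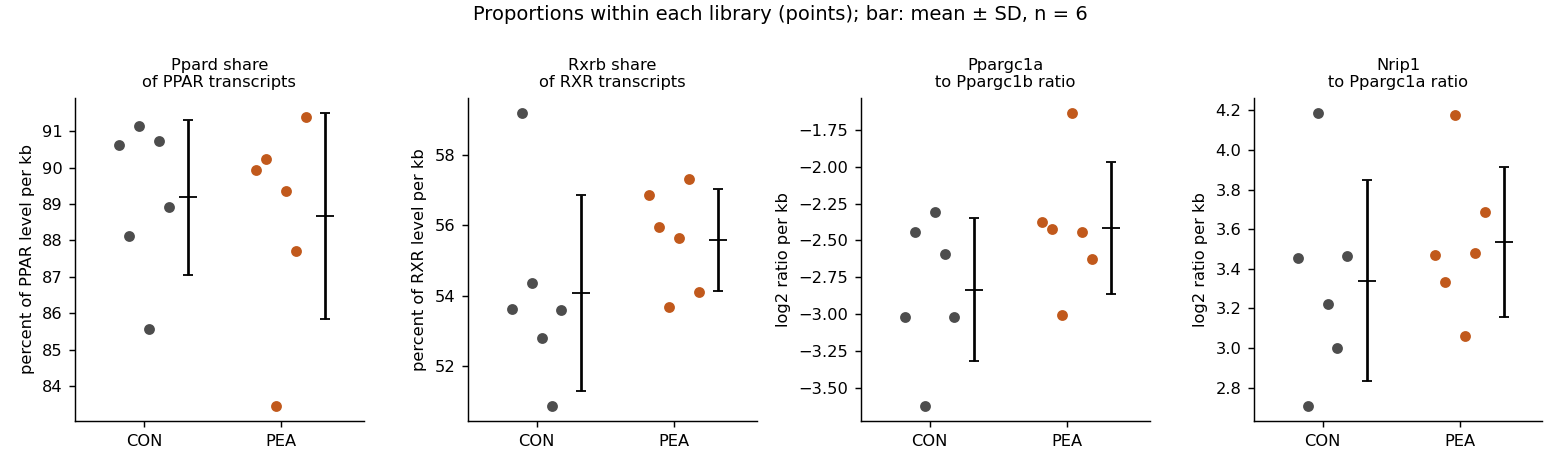
The 4 within-library proportions in the 6 CON and 6 PEA libraries (points), with the mean ± SD beside them: the Ppard share of PPAR levels and the Rxrb share of RXR levels in percent, and 2 ratios per kb on the log2 scale. The groups overlap in each panel. The Rxrb share of CON 2, 59.2%, stands above the other CON libraries.

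While the receptors did not pass the test, genes known as PPAR targets did so in both directions at an adjusted p below 0.05, while below 0.01 stood 4 that were higher (Angptl4, Lpl, Cpt1a and Pdk4, beside 2.15% of all genes) and 0 that were lower (beside 0.936%). Of 48 listed targets 41 were in the tables and 38 were tested, of which 8 were called (21.1%, beside 11.0% of all genes), 5 as higher and 3 as lower. The median log2 change of the 38 was -0.03, with 15 above 0 and 23 below. Among the 38, the groups did not overlap in 5 (Angptl4, Lpl, Cpt1a, Pdk4 and Cd36), beside 4.34% of all genes tested.

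Of the 5 targets that rose, 2 act on lipoprotein triglyceride outside the cell. Angptl4, an inhibitor of lipoprotein lipase and a classic PPARδ target, had 1966, 2182 and 2555 normalized counts as the lowest, median and highest of CON and 2910, 3254 and 3501 in PEA, a log2 change of 0.54 (SE 0.06, adjusted p = 2.4e-04). Every PEA library lay above every CON library. Lpl, lipoprotein lipase itself, rose from 1096 ± 183 to 1753 ± 172 (log2 change 0.68, SE 0.09, adjusted p = 5.3e-04). Pdk4, the kinase that shuts pyruvate out of oxidation, rose from 338 ± 40.8 to 495 ± 76.8 (log2 change 0.56, adjusted p = 0.00339).

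Cpt1a, the carnitine palmitoyltransferase that admits long-chain fatty acids to mitochondria, rose by a smaller factor, from 3035 ± 127 to 3688 ± 151 (log2 change 0.28, SE 0.04, adjusted p = 9.4e-04). Acot2, a mitochondrial thioesterase, rose from 470 ± 118 to 674 ± 116 (log2 change 0.53, adjusted p = 0.0261). The Acot2 groups overlapped, and its call was lost in 5 of 12 fits without 1 library, with an adjusted p of up to 0.0656, without PEA 2.

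The 3 targets that fell take part in fatty acid uptake, binding and oxidation. Cd36, the fatty acid translocase of the cell surface, ran from 226 over 252 to 305 normalized counts in CON and from 148 over 185 to 210 in PEA, with no overlap (log2 change -0.48, SE 0.11, adjusted p = 0.0102). Fabp3, the fatty acid binding protein of muscle, went from 247 ± 43.0 to 191 ± 11.9 (log2 change -0.37, adjusted p = 0.0425). Hadhb, a subunit of the mitochondrial trifunctional protein, had 858 ± 66.7 and 711 ± 60.4 (log2 change -0.27, adjusted p = 0.0160). The call of Fabp3 was lost in 10 of 12 fits without 1 library, with an adjusted p of up to 0.0891, without CON 5.

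Markers of dividing cells moved with the treatment: all 8 listed genes were called as higher in PEA (Mki67, Top2a, Cdk1, Ccnb1, Ccna2, Birc5, Aurkb and Bub1, beside 6.31% of all genes, median log2 change 0.91), and their summed normalized counts were 2779 to 7144 in CON and 7390 to 8821 in PEA. Of 12 myotube markers, all tested, 2 were called as lower (Tnnt3 and Myh8, beside 4.74% of all genes) and 11 lay below 0, with a median of -0.16 and sums of 140722 to 216658 in CON and 150986 to 168985 in PEA. The call of Tnnt3 held in 11 of 12 fits without 1 library and that of Myh8 in 4 of 12, with an adjusted p of up to 0.108 for Myh8. Myoblast and reserve cell markers gave 1 call in each direction among 7 tested (Cd34 higher and Cdh15 lower, sums of 11605 to 13154 and 11241 to 12142). Cd34 kept its call in 12 of 12 fits without 1 library and Cdh15 in 3 of 12, with an adjusted p of up to 0.0972 for Cdh15. Of the macrophage markers 2 were tested and edgeR and DESeq2 called 0, with 1 (Cd14) at an unadjusted p below 0.05, and sums were 599 to 815 and 679 to 882. Ptprc, the leukocyte antigen CD45, was at 0.319 normalized counts in CON and 0.843 in PEA on average. The 2 macrophage markers tested were more abundant, Cd14 at 554 in CON and 657 in PEA and Cd68 at 100 and 96.4. The part of these markers in the differences of the PPAR targets, of Ppargc1b and of Nrip1 was not tested.

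Targets of the ERR receptors and PGC-1 coactivators gave 4 calls among 24 genes tested (16.7%, beside 11.0% of all genes), 3 of them lower in PEA, and the median was -0.07. Uqcrc1, a core subunit of respiratory complex III, fell from 4424 ± 235 to 3975 ± 77.0 normalized counts (log2 change -0.15, adjusted p = 0.0295), and Atp5f1b, the catalytic β subunit of ATP synthase, from 38476 ± 1435 to 34726 ± 1324 (log2 change -0.15, adjusted p = 0.0365). Cycs, cytochrome c, fell from 1321 ± 116 to 1126 ± 85.5 (log2 change -0.23, adjusted p = 0.0343). Cox6a2, the muscle form of a cytochrome oxidase subunit, rose from 286 ± 83.1 to 412 ± 84.3 (log2 change 0.53, adjusted p = 0.0481). These calls were weakly placed: none of the 24 genes was called in edgeR without CON 3, without CON 5, without CON 6, without PEA 2, without PEA 5 or without PEA 6, while DESeq2 on all 12 libraries called 6, beside 14.5% of all genes in that tool.

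Other coregulators of PPARs gave 1 call among 28 genes tested (3.57%, beside 11.0% of all genes) in edgeR and 4 in DESeq2 (beside 14.5% of all genes), with a median log2 change of 0.01. Lpin1, a phosphatidate phosphatase that also acts in the nucleus with PGC-1α and PPARα, rose from 329 ± 66.3 to 470 ± 55.4 normalized counts (log2 change 0.51, SE 0.12, adjusted p = 0.0147), with 5 of 6 PEA libraries above 399, the highest CON value. The next by p were Tbl1xr1, an exchange factor for corepressors (log2 change 0.17, adjusted p = 0.0554), Ncoa4, known as a nuclear receptor coactivator and ferritin receptor (-0.19, adjusted p = 0.0612), and Gps2, a subunit of the NCoR complex (-0.19, adjusted p = 0.0612).

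Of the 26 other nuclear receptors tested, 2 were called (7.69%, also under the 11.0% of all genes), and the median was 0.05. Vdr rose from 1998 ± 162 to 2616 ± 130 normalized counts without overlap (log2 change 0.39, SE 0.06, adjusted p = 5.8e-04). Nr2f1, the orphan receptor COUP-TFI, fell from 384 ± 39.2 to 301 ± 26.5, also without overlap (log2 change -0.35, SE 0.08, adjusted p = 0.0149). Per kb, Vdr stood at 348 ± 28.2 in CON and 456 ± 22.6 in PEA, above Ppard in each group.

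Among 31 tested regulators of Ppargc1a and of PPAR signalling 3 were called (9.68%, near the 11.0% of all genes), and the median was -0.05. Cebpa, a partner of PPARγ in fat cell formation, rose from 399 ± 64.5 to 531 ± 33.0 normalized counts (log2 change 0.42, SE 0.09, adjusted p = 0.00868). Mapk12, the p38γ kinase of muscle, fell from 640 ± 30.0 to 538 ± 48.6 (log2 change -0.25, adjusted p = 0.0210), and Mef2a, a muscle transcription factor that acts on Ppargc1a, from 5355 ± 661 to 4493 ± 380 (log2 change -0.25, adjusted p = 0.0441). The call of Mef2a held in 3 of 12 fits without 1 library, with an adjusted p of up to 0.0968, without PEA 4. Without PEA 5 or without PEA 6 a single call was left of the 31.

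Genes that varied most like a member were found from the within-group deviations of log2 CPM over the 12 libraries, among 13141 genes. For Ppard these were Nubp2 (Pearson r = 0.902, Spearman rho = 0.720), Ercc3 (r = 0.894) and Ripk1 (r = 0.879). Eml3 (r = 0.891), 5730409E04Rik (r = 0.873) and Tnfsf15 (r = 0.872) came nearest to Pparg. For Ppargc1a they were Cd69 (r = 0.923), Pnpt1 (r = 0.915) and Ifitm10 (r = 0.894). These are descriptions of the highest of many correlations over shared libraries, carry no test, and for Ppargc1a rest on few counts.

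The motif of the PPAR and RXR pair was searched on both strands within 5 kb of each annotated gene start in GRCm39, as 2 copies of AGGNCA with 1 base between (AGGNCANAGGNCA). At least 1 match was held by 18.23% of the 13131 windows of tested genes and by 3 of the 10 members, Ppard, Rxrb and Esrra. Their matches are shown because they are the places near these genes that carry the letters a PPAR could read, with the motif in capitals and 8 bases on each side in lower case.
Ppard match, chr17:28448882-28448910, + strand, 2778 bases before the start: gtgtgtagAGGTCAGAGGACAactttcag
Rxrb match, chr17:34246846-34246874, + strand, 3899 bases before the start: aagggaggAGGTCAGAGGTCAcggggcgc
Esrra match, chr19:6897380-6897408, + strand, 1942 bases after the start: aagggtacAGGGCAAAGGGCAcagaagca
The Rxrb match has the full AGGTCA in both copies, a form found in 2.39% of the windows. With 4 flanking bases on each side, the Rxrb and Esrra stretches occur 1 time each in the genome and the Ppard stretch 172 times.

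The element read by ERRα, TCAAGGTCA, was found in 26.61% of the windows and, of the 10 members, only in that of Esrra. The Esrra window held 2 matches, printed like those above.
Esrra match 1, chr19:6899697-6899721, + strand, 373 bases before the start: gacaaaacTCAAGGTCActgcggtg
Esrra match 2, chr19:6897101-6897125, - strand, 2223 bases after the start: tcagagatTCAAGGTCAtcattgac
Of the 24 ERR and PGC-1 targets tested, 4 windows (16.67%) held the PPAR motif and 11 (45.83%, beside 26.61% of all windows) the ERRα element. Of the 38 PPAR targets tested, 7 windows (18.42%) held the PPAR motif and 10 (26.32%) the ERRα element, shares close to those of all windows. Among the 8 called targets, 1 held the former (Fabp3) and 5 the latter, which contains AGGTCA, 1 copy of the PPAR motif. The ERRα matches are shown for the 2 genes of the 5 that rose without overlap, Pdk4 and Cpt1a, and for the 1 with 2 matches, Fabp3, which fell.
Pdk4 match, chr6:5494517-5494541, + strand, 1810 bases after the start: aaaggatgTCAAGGTCAtcctagga
Cpt1a match, chr19:3369672-3369696, + strand, 2169 bases before the start: tcaggagtTCAAGGTCActcttggc
Fabp3 match 1, chr4:130200626-130200650, - strand, 1750 bases before the start: tttctgatTCAAGGTCAcaggcttt
Fabp3 match 2, chr4:130201307-130201331, + strand, 1069 bases before the start: tctttagtTCAAGGTCAacccctgc
Genes that rose and a gene that fell thus carried the same letters, and with 4 flanking bases the Cpt1a stretch occurs 66 times in the genome. A match is a description of the sequence and not a bound site, and no match says only that these letters are not in the window.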

How the data were processed

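RNA-seq libraries of C2C12 myotubes (6 CON, 6 PEA) were compared. Per the labels and methods, the authors aligned reads to mm39 with STAR and quantified them in Partek. The deposited estimated count per gene was not normalized. The other table the authors deposited is a signal: these counts over a DESeq2 factor for each library, called normalized count here. The PEA 2 library was topped up with a further run, and 1 row stands for both. It entered once, and whether its counts sum both runs is not given in the sources used here. The tables end before the identifiers of 2240 protein-coding genes of the annotation, not analysed here, and hold no gene with a total under 10 counts. Symbols, exon lengths and sequences came from GENCODE vM39 (GRCm39).

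Estimated counts were rounded and tested with edgeR 4.0.16 (quasi-likelihood, TMM, default filter, R 4.3.3) with Benjamini-Hochberg adjustment over 13142 genes and a threshold of 0.05. The fit was tested on simulated data for PEA against CON over 13142 genes, in which edgeR recovered 98 of 100 genes changed by 1 and 91 of 100 changed by 0.5 on the log2 scale, with 6 false calls (DESeq2 had 15). The simulated libraries were independent and shared 1 dispersion for all genes. These rates therefore do not carry over to duplicate wells or to members with few counts. DESeq2 1.42.0, limma 3.58.1, other filters and scalings, a replicate block and each library left out were alternatives. Python 3.11.15 served for permutation tests, motif searches and figures. Intervals cover the spread between libraries and counting error only.

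The members and gene lists were chosen with earlier results of these data known. Named genes are the members, in each list the genes called or else the 3 with the smallest p, the 5 most abundant nuclear receptors, and the 3 genes most like Ppard, Pparg and Ppargc1a. Tbl1xr1, Ncoa4, Gps2, Pprc1, Nr3c1, Rara, Plin1, Ptprc and the genes that share exons with members were named outside this rule, after their values were seen.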

Additional observations from a re-analysis of the deposited data

Results flagged for a closer look

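Normalized counts of the 10 members and of the 18 genes called in the target, coregulator, receptor and regulator lists, and the 4 proportions, were screened for a library that stood apart from the other 5 of its group. Of these 64 groups of 6 libraries, 2 showed one, where chance gives about 1 in 20. For Cebpa, CON 4 held 519 normalized counts, and the next CON library 396, a gap of 0.631 of the CON range. That library is the only CON value inside the PEA range, and the call of Cebpa as higher in PEA held in all 12 fits that left out 1 library. For Pdk4, PEA 5 held 647 normalized counts, and the next PEA library 487, a gap of 0.750 of the PEA range. Pdk4 was called in all 12 such fits, with an adjusted p of at most 0.0107.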

How the results depend on the processing

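The log2 change of 8 of the 9 members tested kept its side of the threshold under each alternative, the exception being Ppargc1b, whose values are given above. At an adjusted p below 0.01, 405 genes were called over all, with 4 of the PPAR targets (4 higher, 0 lower), 0 of the ERR and PGC-1 targets, 0 of the other coregulators, 1 of the other nuclear receptors and 1 of the regulators. DESeq2 called 1 member and 4 other coregulators among 1915 genes, and limma-voom called 1 member and 2 other coregulators among 1628, as did a minimum of 10 counts in every library for the coregulators (2). When each library was left out in turn, genes called ranged from 778 (without PEA 6) to 2203 (without CON 2), members called from 0 to 1 (Ppargc1b, without CON 4), ERR and PGC-1 targets from 0 to 6, other coregulators from 1 to 3 (without CON 1) and regulators from 1 to 5 (without CON 2).

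In the same fits the log2 change of Ppargc1a ran from -0.16 to 0.10 and that of Ncor1 from -0.036 to 0.018, so their signs are not settled. The PEA minus CON difference in the Ppard share ran from -1.23 (without CON 4) to 0.54 (without PEA 3) percentage points and that in the Rxrb share from 0.874 (without CON 5) to 2.55 (without CON 2). Calls of Fabp3, Cox6a2, Mef2a, Atp5f1b, Cycs, Uqcrc1, Acot2 and Mapk12 were lost without 1 library or another. Among the cell type markers, so were those of Cdh15, Myh8, Ccnb1 and Tnnt3, which held in 3, 4, 9 and 11 of 12 such fits. On all 12 libraries, Atp5f1b also lost its call with the replicate block (adjusted p = 0.0555) and with the deposited normalized counts in limma (0.0557), as did Fabp3 in the latter (0.0503). Under alternatives on all 12 libraries, Myh8 and Cdh15 lost theirs as well, with an adjusted p of up to 0.062 and 0.0536. The cause was not tested.

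Samples of the same number shared only the number: the correlations of their deviations lay between -0.08 and 0.07. With the number as a replicate block, 1570 genes and 2 other coregulators were called, and the log2 difference of the Ppargc1a to Ppargc1b ratio, 0.42, had p = 0.0312 (exact sign-flip permutation, the smallest p that 6 pairs allow; adjusted over the 4 measures, p = 0.125). The labels do not tie these pairs together, so no conclusion is drawn from the paired test. The unpaired exact permutation test of this ratio gave p = 0.180.

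Depth limits Ppara and Ppargc1a most, since 10 of 12 libraries held fewer than 10 counts of Ppara and as few as 10 of Ppargc1a. Division by exon length assumes that all annotated exons are used, and the order of Rxrb, Esrra, Rxra and Ppard changed with the length chosen.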
